A study of Mus musculus with 9 samples.

Results

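The complement genes described here, 9 of the 49548 genes listed in the deposited tables, were measured in cultured mouse synovial fibroblasts (SFs), the connective tissue cells that line the joint. They were chosen by gene name as C1qa, C1qb, C1qc, C1ra, C3, C4b, Cfb, Cfd and Serping1, and all 9 had a row in both tables. The SFs came from the ankle joints of 8-week-old mice on a mixed CBA and C57BL/6J background, and 3′ mRNA libraries were sequenced from 3 cultures of wild-type (WT) mice, 3 of untreated hTNFtg mice, which carry a human TNF transgene and develop arthritis, and 3 of hTNFtg SFs given infliximab, an antibody that binds human TNF, at 1 µg/mL for 48 hours. The joints had been digested with collagenase, and cells with the leukocyte surface protein CD45 had been depleted at the first passage. The labels give the WT SFs and the hTNFtg SFs without infliximab as untreated, where the study's methods describe vehicle. The methods call the 3 libraries of a group biological replicates, and nothing links a treated culture to an untreated culture of the same mouse. The comparisons ask how complement genes differ between arthritic and WT SFs and how they differ after TNF is blocked in culture.

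Complement is a cascade of proteases that marks surfaces for removal and calls in inflammatory cells. In the classical pathway, C1q (an assembly of the chains encoded by C1qa, C1qb and C1qc) binds a target and activates the proteases C1r and C1s, which cleave C4 and C2 into an enzyme that splits C3. In the alternative pathway, C3 forms its own cleaving enzyme with factor B (Cfb), which factor D (Cfd) activates. C1 inhibitor (Serping1) holds C1r and C1s of the classical pathway in check. Liver makes most of the circulating proteins, macrophages are a main source of C1q, and fibroblasts of inflamed joints are known to make several of the other components.

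Values are normalized counts, that is reads per gene scaled by a factor per library so that libraries can be compared, and rounded. Approximate reads per library ran from 3828555 to 9014903 in 8 libraries, while hTNFtg replicate 1 held 613308, so that 1 read there was worth 6.227 normalized counts and a count of 3 reads, taken as the floor of detection, corresponded to 18.68 normalized counts (1.6 to 3.31 elsewhere). The 12 fibroblast markers summed to 43206 to 53550 normalized counts in WT, 38783 to 46648 in hTNFtg and 36553 to 42694 with infliximab, with Col1a1 at 12251 or more in every library and 0 of the 12 absent. The 18 macrophage markers summed to 233 to 1160 in WT, 4142 to 9085 in hTNFtg and 2762 to 5458 with infliximab. The 16 hepatocyte markers summed to 1548 in infliximab replicate 3 and to 50 to 179 in the other 8 libraries, with Alb, the albumin gene, at 265 against at most 12. The 5 endothelial markers summed to at most 6 in any library.

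Together the 9 genes took 0.0409% to 0.068% of all normalized counts in WT, 0.101% to 0.153% in untreated hTNFtg and 0.0681% to 0.1% with infliximab. Cfb, C1ra and Serping1 were the 3 most abundant in each WT library by this tag count, which in a 3′ assay is 1 tag per transcript and is not divided by length. C3 was among the 3 most abundant in hTNFtg replicates 2 and 3 and in infliximab replicate 1. C1qa led in replicate 3 of the untreated and of the infliximab-treated hTNFtg SFs, with 30% and 27.2% of the members' counts. Cfd was at or near 0 throughout.

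**Figure D1:**
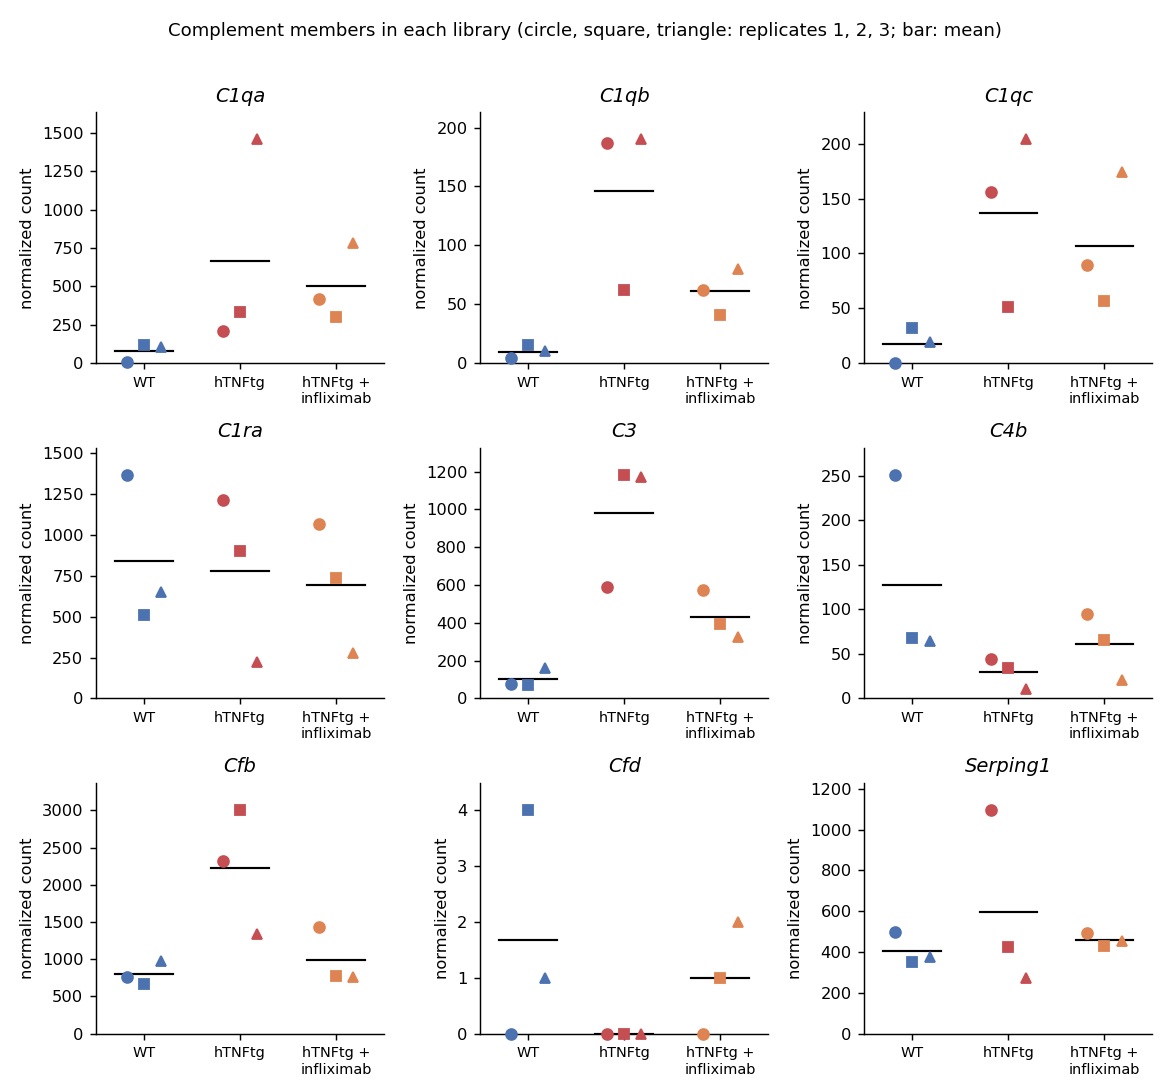
Normalized counts (y axis, linear, from 0) of each of the 9 complement genes in the 9 libraries, with a circle, square and triangle for replicates 1, 2 and 3 and a bar for the group mean. C1qa, C1qb, C1qc, C3 and Cfb sit higher in every untreated hTNFtg library than in any WT library, C4b sits lower, and C1ra and Serping1 overlap.

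A gene was called by P and fold when limma's moderated test gave an unadjusted P under 0.05 and the log2 fold change was 1 or more in either direction, the study's own thresholds, and called by adjusted p when the Benjamini-Hochberg value over all genes tested was under 0.05. All 9 members were tested in each comparison. In hTNFtg versus WT SFs, 5 of the 9 members were raised by P and fold (C1qa, C1qb, C1qc, C3 and Cfb), where 3.35% of all 28522 genes tested were, and 1 was lowered (C4b), where 3.04% were. By adjusted p, 2 members passed (C1qb and C3), against 0.48% of all genes. The values of the groups did not overlap in 6 members, against 11.4% of all genes. The median log2 fold change was 1.404 over the members and -0.003 over all genes.

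With infliximab, compared with untreated hTNFtg SFs, 3 members were lowered by P and fold (C1qb, C3 and Cfb), against 0.936% of 28540 genes, and 0 were raised by limma, against 1.49%. No member passed by adjusted p, and neither did any gene in this comparison (0% by limma, where 1026 genes had an unadjusted P under 0.05 and edgeR's quasi-likelihood test called 165). At an unadjusted P under 0.05 the members numbered 3, and edgeR called 0 of the 9 by adjusted p. The groups did not overlap in 1 member, C3, against 7.44% of all genes. The median log2 fold change of the members was -0.134, beside 0.000 over all genes.

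Infliximab-treated hTNFtg SFs were also compared with WT SFs. In that comparison 4 members were raised by P and fold (C1qa, C1qb, C1qc and C3), against 3.86% of 28243 genes, and 0 were lowered, against 2.95%. C1qb and C3 passed by adjusted p, against 0.74% of all genes, and 4 members did not overlap between groups, against 14.2%. The members' median log2 fold change was 0.249, beside 0.000 over all genes. Each pair of these comparisons shares 3 libraries, so their fold changes are not independent and are only set side by side. P-values measure only the spread between these cultures.

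**Figure D2:**
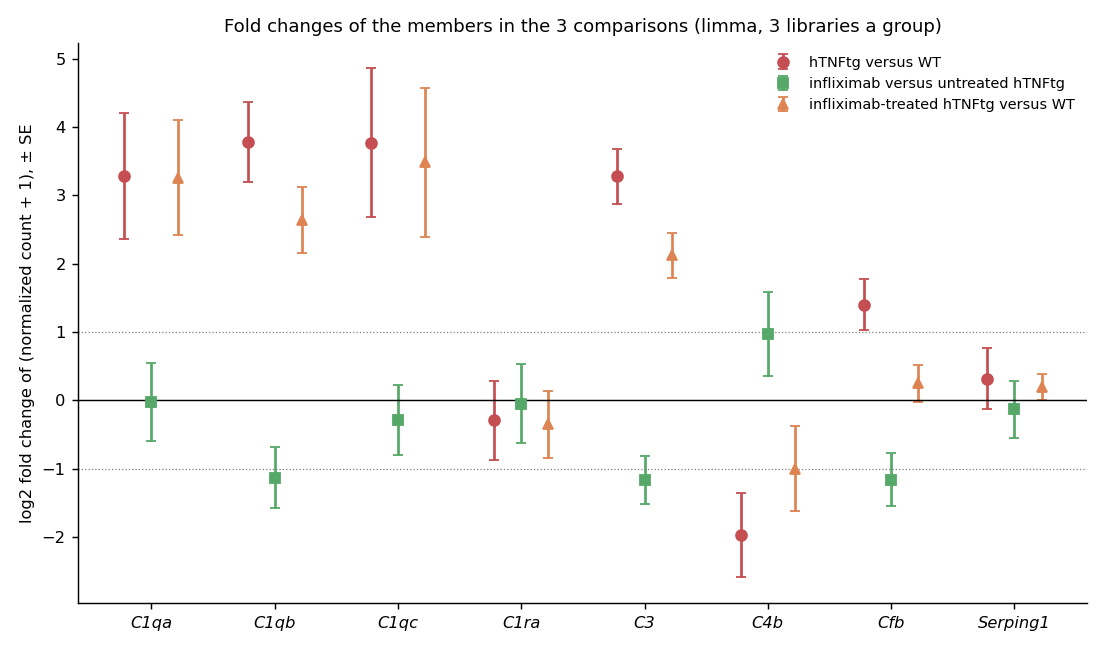
Log2 fold change of normalized count + 1 (y axis) with its SE from limma for 8 members in the 3 comparisons, with dotted lines at 1 and -1. C1qa, C1qb, C1qc and C3 lie above 1 in both comparisons with WT, while C1qb, C3 and Cfb lie below -1 with infliximab. Cfd is not drawn because its counts were at or near 0.

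C1qa, C1qb and C1qc encode the recognition chains of C1q and lie beside each other on the minus strand of chromosome 4 in mm10, C1qb at 136880129 to 136886187, C1qc at 136889804 to 136893065 and C1qa at 136895917 to 136898803, with 3616 and 2851 bases between neighbours. Promoters of RefSeq genes (GRCm38.p6, 250 bases before to 50 after the annotated start) were matched for 5 of the 9 members, C1qb, C1qc, C1ra, C3 and Cfd. Those of C1qb (chr4:136886151-136886450) and C1qc (chr4:136892865-136893164), both read on the minus strand, are shown because these neighbours were raised in the same libraries. Capitals mark matches, on either strand, to the 10-base NF-kB consensus, to GAGGAA (a PU.1-type core) or to TTGCNNAA (a C/EBP-type motif).
C1qb: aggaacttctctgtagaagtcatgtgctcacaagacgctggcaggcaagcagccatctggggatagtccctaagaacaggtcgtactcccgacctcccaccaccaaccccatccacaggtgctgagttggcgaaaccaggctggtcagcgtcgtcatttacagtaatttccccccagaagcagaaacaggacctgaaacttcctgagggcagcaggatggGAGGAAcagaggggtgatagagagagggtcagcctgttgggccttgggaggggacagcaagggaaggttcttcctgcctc
C1qc: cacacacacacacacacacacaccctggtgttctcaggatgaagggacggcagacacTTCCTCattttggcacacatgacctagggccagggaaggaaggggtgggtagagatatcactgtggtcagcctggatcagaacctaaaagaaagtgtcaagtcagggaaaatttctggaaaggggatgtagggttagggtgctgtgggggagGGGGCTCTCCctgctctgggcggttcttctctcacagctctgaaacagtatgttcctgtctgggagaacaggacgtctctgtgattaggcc
The C1qb window holds GAGGAA 30 bases before the RefSeq start. The C1qc window holds its reverse complement TTCCTC 193 bases before the RefSeq start and an NF-kB match, GGGGCTCTCC, 41 bases before it, and these matches do not overlap. The deposited tables place the start of C1qc 151 bases upstream of the RefSeq start, so that by the tables the NF-kB match begins 110 bases inside the gene and TTCCTC 42 bases before it. For C1qb the tables' start is 13 bases downstream of the RefSeq start. Of 32851 promoters of the same length, 28.3% hold GAGGAA, 8.46% the NF-kB consensus and 10.8% TTGCNNAA, on either strand. These are matches of letters only.

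C1qa was at 8, 115 and 106 normalized counts in WT replicates 1, 2 and 3, at 212, 330 and 1458 in hTNFtg, and at 418, 301 and 783 with infliximab. WT replicate 1 stood far below the other WT libraries, hTNFtg replicate 3 far above the other hTNFtg libraries, and both hTNFtg groups lay wholly above WT and overlapped each other. The log2 fold change was 3.28 ± 0.92 (SE) in hTNFtg versus WT (adjusted p = 0.216), 3.26 ± 0.84 in infliximab-treated versus WT (adjusted p = 0.133) and -0.02 ± 0.57 with infliximab versus untreated (adjusted p = 1). Without WT replicate 1 the first became 2.07 and the second 2.05, and both remained past the P and fold thresholds, but with robust empirical Bayes neither was called (adjusted p = 0.727 and 0.414).

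C1qb was at 4, 15 and 10 in WT, at 187, 62 and 190 in hTNFtg, and at 62, 41 and 80 with infliximab. Every WT value was below every other value, and infliximab-treated libraries overlapped untreated ones only through hTNFtg replicate 2. C1qb rose by 3.78 ± 0.59 on the log2 scale in hTNFtg versus WT (adjusted p = 0.0209) and by 2.64 ± 0.48 in infliximab-treated hTNFtg versus WT (adjusted p = 0.0448). Both adjusted calls were lost whichever library was left out (adjusted p = 0.0658 to 0.372 and 0.107 to 0.345), while the log2 fold changes were 3.31 to 4.31 and 2.17 to 3.01. In infliximab-treated versus untreated hTNFtg the log2 fold change was -1.13 ± 0.45 (adjusted p = 0.803), and the P and fold call was lost without hTNFtg replicate 1 (-0.87) or 3 (-0.86), or without infliximab replicate 1 (-1.17) or 2 (-0.88). With limma's array weights, which give noisier libraries less weight, it was -0.38.

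C1qc was at 0, 32 and 19 in WT, at 156, 51 and 204 in hTNFtg, and at 89, 57 and 174 with infliximab. Again every WT library was below every hTNFtg library, treated or not. The log2 fold change was 3.77 ± 1.09 in hTNFtg versus WT (adjusted p = 0.231), 3.48 ± 1.09 in infliximab-treated versus WT (adjusted p = 0.218) and -0.29 ± 0.51 with infliximab versus untreated. The first of these was 2.21 without WT replicate 1, and its P and fold call was lost without hTNFtg replicate 1 (3.57). The second was 1.92 without WT replicate 1, and its call was lost without infliximab replicate 1 (3.53) or 3 (3.05). With robust empirical Bayes neither was called (adjusted p = 0.726 and 0.499).

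The 3 chains did not keep a fixed ratio. C1qa counts were 5.32 to 10.6 times those of C1qb in 7 of the 9 libraries, but 1.13 times in hTNFtg replicate 1 and 2 times in WT replicate 1, where C1qb rested on 30 and 4 approximate reads. C1qb counts were 0.931 to 1.22 times those of C1qc in untreated hTNFtg, 0.46 to 0.719 times with infliximab, and 0.469 and 0.526 times in the WT libraries where C1qc was above 0.

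Summed macrophage markers, like each C1q chain, were higher in every hTNFtg library, treated or not, than in any WT library. Within untreated hTNFtg the sums were 9085, 4142 and 6418 in replicates 1, 2 and 3. Replicate 2 was also lowest in C1qb and C1qc, but C1qa was lowest in replicate 1, at 212. Of the 18 fixed markers, 14 were raised by P and fold in hTNFtg versus WT and in infliximab-treated hTNFtg versus WT, and 0 were raised or lowered with infliximab versus untreated. Lyz2, the lysozyme gene of myeloid cells, was at 43, 277 and 95 in WT, 5356, 2284 and 2356 in hTNFtg and 2388, 1277 and 2672 with infliximab. Ptprc, which encodes the depleted CD45, was at 0, 3 and 0 in WT, 31, 9 and 12 in hTNFtg and 28, 8 and 22 with infliximab, and Cd163 was at 0 in 7 of the 9 libraries. The summed C1q chains amounted to 0.0515 to 0.369 of the macrophage marker sum in WT, 0.0611 to 0.289 in hTNFtg and 0.117 to 0.19 with infliximab, so that this ratio overlapped among all groups. The part of macrophage markers in the C1q result was not tested. In these bulk libraries, fewer cells of a type and less RNA per cell cannot be told apart.

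**Figure D3:**
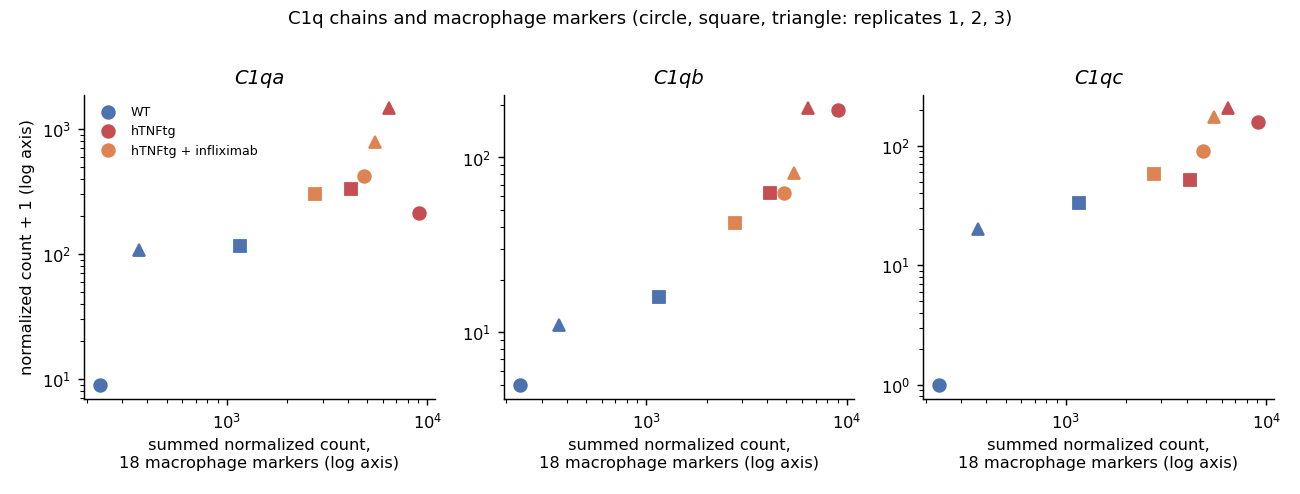
Normalized count + 1 of C1qa, C1qb and C1qc (y axes, log scale) against the summed normalized counts of 18 macrophage markers (x axes, log scale) in 9 libraries, coloured by group, with a circle, square and triangle for replicates 1, 2 and 3. The WT libraries lie at marker sums of 233 to 1160 and the hTNFtg libraries, treated or not, at 2762 to 9085.

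C1ra encodes C1r, the protease that C1q activates first, on the plus strand of chromosome 6 (124512405 to 124523443). It was at 1370, 509 and 652 in WT, at 1215, 901 and 226 in hTNFtg, and at 1067, 740 and 280 with infliximab. The 3 groups overlapped over nearly their whole ranges, with replicate 1 highest and replicate 3 lowest in both hTNFtg groups. The log2 fold change was -0.29 ± 0.58 in hTNFtg versus WT (adjusted p = 0.856), -0.05 ± 0.58 with infliximab versus untreated (adjusted p = 1) and -0.35 ± 0.49 in infliximab-treated versus WT (adjusted p = 0.726).

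Mice carry C1rb, a close copy of C1ra, 46850 bases away on the same strand, and reads of copies this alike may be divided between them in counting. C1rb was at 146, 326 and 385 in WT, 118, 75 and 128 in hTNFtg, and 129, 91 and 173 with infliximab, and it was lowered by P and fold in hTNFtg versus WT (log2 fold change -1.33 ± 0.40, adjusted p = 0.26). The ratio of C1rb to C1ra took no middle values. It was 0.0832 to 0.123 in WT replicate 1, hTNFtg replicates 1 and 2 and infliximab replicates 1 and 2, and 0.566 to 0.64 in WT replicates 2 and 3, hTNFtg replicate 3 and infliximab replicate 3. The higher ratio was thus found in 2 of 3 WT libraries and in 1 of 3 in each hTNFtg group, and its part in the C1rb difference was not tested. Summed, the 2 copies gave 1516, 835 and 1037 in WT, 1333, 976 and 354 in hTNFtg and 1196, 831 and 453 with infliximab, which overlapped as C1ra alone did.

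C4b encodes C4, the substrate of C1s, on the minus strand of chromosome 17 (34728380 to 34743882). It was at 251, 68 and 64 in WT, at 44, 34 and 11 in hTNFtg, and at 95, 66 and 21 with infliximab. All hTNFtg values were below all WT values, WT replicate 1 stood far above the rest, and the infliximab group overlapped both others. C4b was lowered by P and fold in hTNFtg versus WT, the only member to be so, with a log2 fold change of -1.97 ± 0.62 (adjusted p = 0.297) that became -1.33, and was no longer called, without WT replicate 1. With infliximab it was 0.97 ± 0.62 versus untreated hTNFtg (adjusted p = 0.803), while versus WT the C4b level was 2-fold lower (SE 0.62 on the log2 scale, adjusted p = 0.552). The first of these passed P and fold with edgeR (1.22, adjusted p = 0.485) and ran from 0.39 without hTNFtg replicate 3 to 1.59 without infliximab replicate 3, the library with hepatocyte transcripts, where it passed the P and fold thresholds (adjusted p = 0.875). The log2 fold change versus WT was -0.36 without WT replicate 1 and -0.38 without infliximab replicate 3, while edgeR on approximate reads gave -1.08 and called it (adjusted p = 0.00488).

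C4a is a near copy of C4b 65209 bases away, so the same doubt about divided reads holds. The ratio of C4b to C4a was 3.59, 2.06 and 2 in WT, 0.786, 1.55 and 0.289 in hTNFtg, and 2.21, 2.87 and 0.447 with infliximab. Added together, both gave 321, 101 and 96 in WT, 100, 56 and 49 in hTNFtg, and 138, 89 and 68 with infliximab. Taken as a sum, the WT and hTNFtg libraries overlapped only in that hTNFtg replicate 1 (100) lay above WT replicate 3 (96). That gap is smaller than the 6.227 normalized counts that 1 read was worth in hTNFtg replicate 1. There C4b and C4a rested on 7 and 9 reads, so the overlap is not resolved at that depth. C4a by itself had a log2 fold change of -0.21 ± 0.49 in hTNFtg versus WT (adjusted p = 0.888).

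C3 encodes the central protein on which all pathways converge and lies on the minus strand of chromosome 17 (57203970 to 57228136). Its promoter (chr17:57228087-57228386, minus strand, GRCm38.p6) is shown because C3 was the only member whose values separated the groups in each of the 3 comparisons, with capitals as above.
C3: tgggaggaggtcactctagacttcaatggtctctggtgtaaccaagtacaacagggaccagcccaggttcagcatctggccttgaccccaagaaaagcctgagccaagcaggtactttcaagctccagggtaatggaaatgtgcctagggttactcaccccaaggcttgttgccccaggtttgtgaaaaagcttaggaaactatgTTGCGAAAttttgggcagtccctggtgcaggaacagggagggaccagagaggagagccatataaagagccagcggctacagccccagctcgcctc
This window holds the C/EBP letters TTGCGAAA 45 bases before the gene's start and neither GAGGAA nor the NF-kB consensus on either strand.

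C3 was at 78, 69 and 162 normalized counts in WT, at 592, 1184 and 1171 in hTNFtg, and at 576, 396 and 323 with infliximab. The infliximab libraries all lay above every WT library and below every untreated hTNFtg library, although infliximab replicate 1 (576) and hTNFtg replicate 1 (592) were close. The latter value rested on 95 reads, each worth 6.227 normalized counts, so this separation is narrow at that depth. The group means were 103 ± 51.3 (SD, n = 3), 982 ± 338 and 432 ± 130. C3 rose 9.7-fold in hTNFtg versus WT (log2 fold change 3.28 ± 0.40, adjusted p = 0.00631), and in infliximab-treated hTNFtg versus WT it rose by 2.12 ± 0.33 on the log2 scale (adjusted p = 0.0286). Left-out libraries gave 3.05 to 3.66 and 1.89 to 2.50, but both adjusted calls were lost whichever library was left out (adjusted p = 0.0512 to 0.265 and 0.131 to 0.345).

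With infliximab versus untreated hTNFtg, C3 had a log2 fold change of -1.16 ± 0.35 (adjusted p = 0.803), that is 2.23-fold lower. It remained negative without any single library, from -1.49 to -0.97, but fell short of the fold threshold without hTNFtg replicate 2 (-0.99) or 3, or without infliximab replicate 3 (-0.97). Array weights gave -1.41 with an adjusted p of 0.0168. Infliximab replicate 3, which held hepatocyte transcripts, had the lowest C3 of its group, and the part of these transcripts in the C3 level was not tested.

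Cfb encodes factor B, the partner of C3 in the alternative pathway, on the minus strand of chromosome 17 (34856374 to 34862518), 85 bases from C2. It was at 768, 669 and 974 in WT, at 2323, 3004 and 1333 in hTNFtg, and at 1427, 771 and 764 with infliximab. Every hTNFtg value was above every WT value, and with infliximab 2 of the 3 libraries were within the WT range while the other, replicate 1, lay above hTNFtg replicate 3. The log2 fold change was 1.40 ± 0.37 in hTNFtg versus WT (adjusted p = 0.187), -1.16 ± 0.39 with infliximab versus untreated (adjusted p = 0.803) and 0.25 ± 0.27 in infliximab-treated versus WT (adjusted p = 0.646). The P and fold call with infliximab versus untreated was lost without hTNFtg replicate 1 or 2 or infliximab replicate 2 or 3, where the log2 fold change was -1.08, -0.90 and -1.01 in the first 3 of these. Array weights gave -1.55 with an adjusted p of 0.0188.

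Counts of 2 other genes at the Cfb locus followed those of Cfb. Gm20547, annotated as protein coding on the same strand across Cfb and C2 (34856412 to 34882042), amounted to 0.354 to 0.428 of the Cfb count in the 9 libraries. Nelfe, a subunit of a transcription elongation factor encoded on the opposite strand, lies 1 base from Cfb (34850391 to 34856372) and amounted to 0.356 to 0.44 of it, and its counts exceeded those of Gm20547 by 5 to 12 in each library. Whether counting used the strand is not given in the sources used here, so reads of Cfb, Gm20547 and the end of Nelfe cannot be told apart. The direction of Cfb was shared by both, with Nelfe at 298, 274 and 429 in WT, 828, 1116 and 568 in hTNFtg and 553, 296 and 297 with infliximab.

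C3 divided by Cfb was 0.102, 0.103 and 0.166 in WT, 0.255, 0.394 and 0.878 in hTNFtg, and 0.404, 0.514 and 0.423 with infliximab. It was higher in all 6 hTNFtg libraries, treated or not, than in any WT library, and the treated and untreated libraries overlapped.

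**Figure D4:**
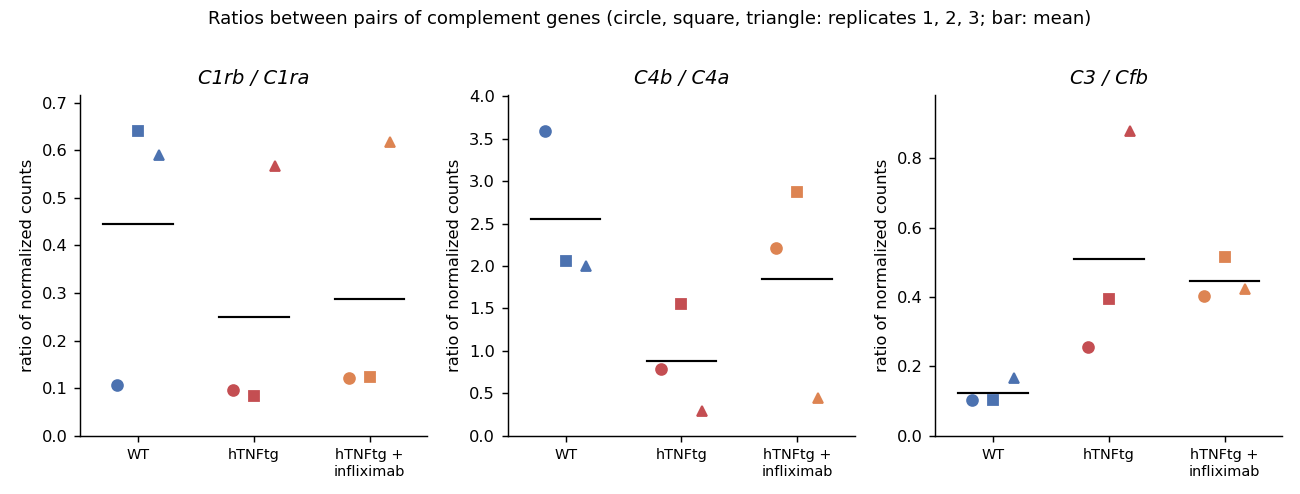
Ratios of normalized counts (y axes, linear, from 0) of C1rb to C1ra, C4b to C4a and C3 to Cfb in the 9 libraries, with a circle, square and triangle for replicates 1, 2 and 3 and a bar for the mean. C1rb to C1ra takes values of 0.0832 to 0.123 or 0.566 to 0.64, and C3 to Cfb is higher in every hTNFtg library, treated or not, than in WT.

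Cfd encodes factor D, also called adipsin, the protease that cleaves factor B and a product of fat cells, on the plus strand of chromosome 10 (79890853 to 79892656). It was at 0, 4 and 1 in WT, at 0, 0 and 0 in hTNFtg, and at 0, 1 and 2 with infliximab. The highest value rested on 4 approximate reads, and no fold is given. Neither limma's main test nor edgeR called Cfd, but array weights passed it by P and fold as lowered in hTNFtg versus WT (adjusted p = 0.162), as did leaving out WT replicate 1, and without infliximab replicate 1 it passed as raised with infliximab versus untreated. The 8 adipocyte markers summed to 863 to 1008 in WT, 440 to 510 in hTNFtg and 454 to 520 with infliximab, and their part in the Cfd level was not tested. Of these, Cidec and Lep were at 0 in all libraries, Plin1 and Retn were at 6 or less, and Adipoq was at 5 in WT replicate 3 and 0 elsewhere. Fabp4 is a fatty acid binding protein gene of fat cells that macrophages also express. It held only part of the sum, with 443 of 959 normalized counts in WT replicate 1 and 436 of 510 in hTNFtg replicate 1. Most of the rest came from markers of the list not named here. By P and fold, 1 of the 6 markers tested was lowered in hTNFtg versus WT and 0 were raised. In infliximab-treated hTNFtg versus WT, 1 was raised and 1 lowered. Fabp4 was at 443, 408 and 359 in WT, 436, 222 and 65 in hTNFtg and 217, 147 and 120 with infliximab.

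Serping1 encodes C1 inhibitor, on the minus strand of chromosome 2 (84765387 to 84775444). It was at 499, 349 and 374 in WT, at 1096, 426 and 273 in hTNFtg, and at 494, 429 and 455 with infliximab. The untreated hTNFtg libraries spanned the values of both other groups, and only hTNFtg replicate 1, the shallow library, exceeded 499. The log2 fold change was 0.32 ± 0.45 in hTNFtg versus WT (adjusted p = 0.786), -0.13 ± 0.42 with infliximab versus untreated (adjusted p = 0.951) and 0.19 ± 0.19 in infliximab-treated versus WT (adjusted p = 0.646).

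A list of 47 other complement genes was examined by role, of which 20 had a mean of at least 10 normalized counts and 10 were at or under the floor in all groups. In hTNFtg versus WT, 8 of the 41 tested were raised and 2 lowered by P and fold, against the 3.35% and 3.04% of all genes given above. With infliximab versus untreated, 0 of 42 were raised and 1 was lowered, and in infliximab-treated versus WT 9 of 43 were raised and 2 lowered, against 1.49% and 0.936%, and 3.86% and 2.95%, of all genes. Their median log2 fold changes were 0.159, 0.164 and 0.590, beside -0.003, 0.000 and 0.000 over all genes.

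Among the 14 genes that start the classical and lectin pathways, 0 were raised and 1, C1rb, was lowered by limma's P and fold in hTNFtg versus WT. C1s1, which did not pass there with 1.36 ± 0.78, did so with array weights (1.94, adjusted p = 0.0518) and with edgeR (1.59, adjusted p = 0.00303). C1rb lost its call without WT replicate 2 (-1.18) or 3 (-1.06). It passed by adjusted p with array weights (-1.78, adjusted p = 0.00781) and with edgeR (-1.50, adjusted p = 0.00624), but in no other alternative fit. The C1s1 value was 0.61 without hTNFtg replicate 1. It was 2.38 without hTNFtg replicate 3, where C1s1 passed P and fold (adjusted p = 0.213). The proteases C1s1 and C1s2 were raised by P and fold in infliximab-treated hTNFtg versus WT, C1s1 with a log2 fold change of 1.44 ± 0.50 (adjusted p = 0.269, the call being lost in the fit of all 9 libraries) and C1s2 with 1.47 ± 0.48 (adjusted p = 0.247), and C1rb was lowered (-1.05 ± 0.37, adjusted p = 0.273). There C1rb passed by adjusted p with edgeR (0.000396) and robust empirical Bayes (0.00286). Its P and fold call was lost without WT replicate 2 or 3 or infliximab replicate 1 or 2. C1s1, the partner protease of C1r and a neighbour of C1ra, was at 408, 99 and 122 in WT, 1258, 631 and 107 in hTNFtg and 656, 540 and 281 with infliximab. As with C1ra, untreated hTNFtg replicate 3 was lowest and replicate 1 highest of its group. The higher ratio of C1rb to C1ra was found in WT replicates 2 and 3, hTNFtg replicate 3 and infliximab replicate 3. In those libraries C1s1 was at 99 to 281 and C1s2 at 7 to 24, against 408 to 1258 and 26 to 48 in the others. The part of this division in the C1s1 and C1s2 differences between groups was not tested. Under edgeR or array weights Colec10, Colec11, Fcna and Mbl2 also passed P and fold in some comparison, of which only Mbl2, a mannose-binding lectin gene of liver, did so by adjusted p, with edgeR in infliximab-treated hTNFtg versus WT (adjusted p = 0.00359). Mbl2 was at 20 in infliximab replicate 3, the library with hepatocyte transcripts, at 1 in hTNFtg replicate 3 and at 0 elsewhere. Properdin (Cfp), which stabilizes the C3-cleaving enzyme, was raised in hTNFtg versus WT (1.79 ± 0.57, adjusted p = 0.313) and in infliximab-treated hTNFtg versus WT (1.13 ± 0.50, adjusted p = 0.414). The Cfp call with infliximab versus WT was lost with a pseudocount of 5 (0.95), quantile normalization (1.11), the replicate block and edgeR (0.95). Of the 7 terminal components, 0 reached a mean of 10 and 0 were called by limma, while edgeR passed Hc, the gene of C5, by P and fold with infliximab versus untreated (adjusted p = 0.656). Its values there were 0, 1 and 7 with infliximab and 0 in each untreated library, the 7 being infliximab replicate 3, which held hepatocyte transcripts.

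Clu, the gene of clusterin, a fluid-phase inhibitor of the terminal complex, was at 189, 142 and 302 in WT, 19, 25 and 13 in hTNFtg, and 32, 33 and 16 with infliximab. It fell by 3.38 on the log2 scale in hTNFtg versus WT (SE 0.41, adjusted p = 0.00627) and by 2.92 in infliximab-treated hTNFtg versus WT (SE 0.36, adjusted p = 0.017). The second adjusted call was lost whichever library was left out (adjusted p = 0.102 to 0.342) and the first without hTNFtg replicate 1 or any WT library (0.0363 to 0.25 over all 6), while the P and fold calls held throughout. It was the only fluid-phase regulator of 7 to be called by limma as described above, while under an alternative fit C4bp, Cfi, Cpn1 and Vtn also passed P and fold in some comparison. Of these 4, none passed by adjusted p in edgeR or with array weights, and C4bp and Vtn were highest in infliximab replicate 3, at 10 and 24 normalized counts. Of the 8 membrane regulators, Cd55, the gene of decay-accelerating factor, was raised by limma's P and fold in hTNFtg versus WT (1.42 ± 0.63, adjusted p = 0.635), a call lost with a pseudocount of 5 (1.16) and with the replicate block (adjusted p = 0.615). The others were not called in that fit, but array weights passed Susd4 in hTNFtg versus WT (-1.47, adjusted p = 0.162) and with infliximab versus untreated (1.09, adjusted p = 0.264), and Cd46 in infliximab-treated versus WT (1.37, adjusted p = 0.278).

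Receptors held most of the genes raised by limma's P and fold, with 6 of 9 tested in each comparison with WT, namely C3ar1, C5ar1, Itgam, Itgax, Itgb2 and Cd93. In infliximab-treated versus WT the C5ar1 call was lost with the replicate block (2.59, adjusted p = 0.508) and without infliximab replicate 1 (2.16). C3ar1, the receptor of the C3a fragment, was at 1, 23 and 7 in WT, 112, 65 and 107 in hTNFtg, and 59, 46 and 100 with infliximab. Its log2 fold change was 3.68 ± 0.78 in hTNFtg versus WT (adjusted p = 0.0766), beside 3.19 ± 0.74 for C5ar1, the C5a receptor, 3.45 ± 0.82 for Itgb2 and 2.63 ± 0.53 for Cd93. Without single libraries these ran from 2.75 to 4.54, 2.41 to 3.76, 2.80 to 3.91 and 2.21 to 2.85, in that order. Each kept its P and fold call in hTNFtg versus WT. Itgam, which pairs with Itgb2 to form complement receptor 3, was at 15, 12 and 7 in WT, 143, 54 and 89 in hTNFtg, and 40, 27 and 38 with infliximab. Its groups separated in each of the 3 comparisons, with a log2 fold change of 2.91 ± 0.51 in hTNFtg versus WT (adjusted p = 0.0322) and -1.33 ± 0.42 with infliximab versus untreated (adjusted p = 0.803), and of its 2 rows the one with the higher mean was used. The adjusted call was lost whichever library was left out (adjusted p = 0.113 to 0.412), and the P and fold call with infliximab versus untreated was lost without hTNFtg replicate 1 (-0.99) and with array weights (-0.81). Itgax was at 0 in every WT library, at 0, 3 and 5 in hTNFtg and at 13, 4 and 9 with infliximab. The untreated hTNFtg libraries thus overlapped WT, and the Itgax call in hTNFtg versus WT was lost with either other pseudocount, robust empirical Bayes, the replicate block and the fit of all 9 libraries (adjusted p = 0.523 to 0.685). In infliximab-treated versus WT Itgax passed by adjusted p (0.0498), but not when any single library was left out (adjusted p = 0.119 to 0.342). These receptors are carried by myeloid cells. The summed macrophage markers given above were also higher in both hTNFtg groups than in WT, and the part of those cells was not tested.

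**Figure D5:**
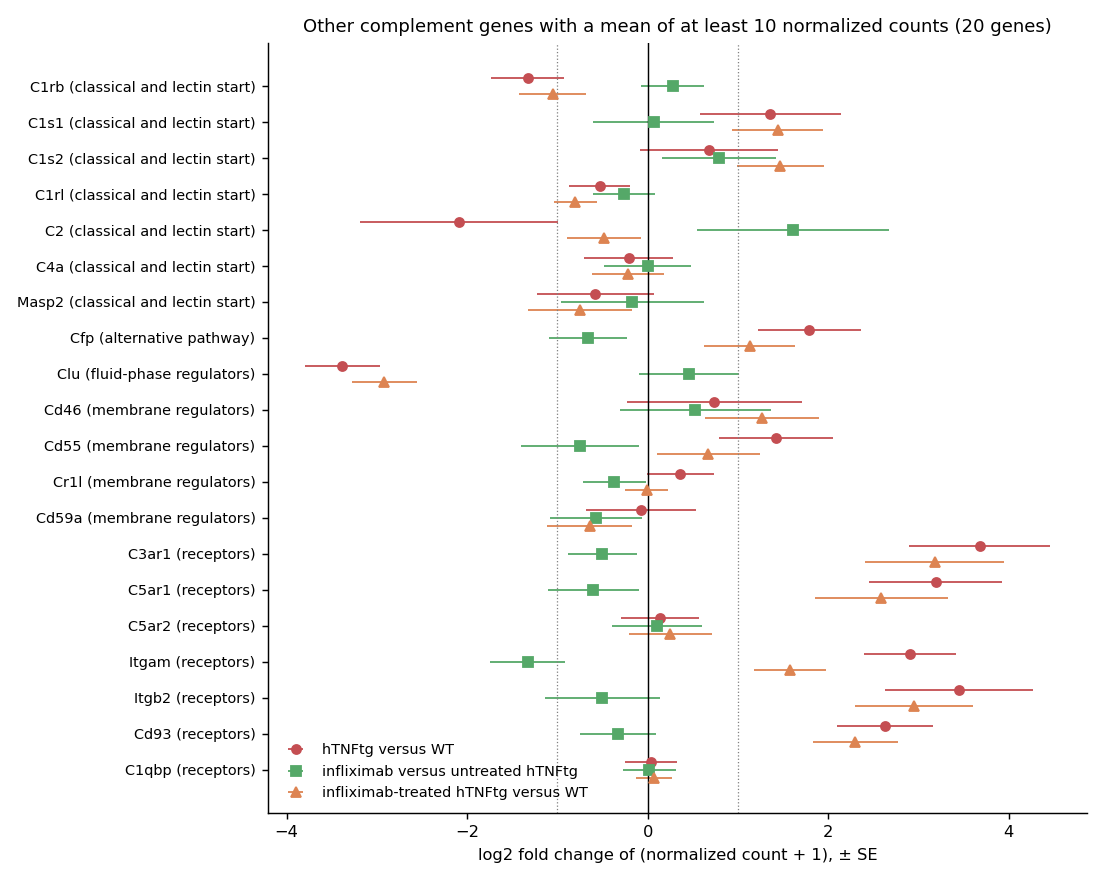
Log2 fold change of normalized count + 1 (x axis) with its SE from limma for the 20 other complement genes with a mean of at least 10 normalized counts, by role, in the 3 comparisons, with dotted lines at 1 and -1. C3ar1, C5ar1, Itgam, Itgb2 and Cd93 lie above 1 in both comparisons with WT, and Clu lies below -2 in both.

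The genes whose profile over the 9 libraries was most like a member's were found by Pearson's r among 11547 protein-coding genes with a mean of at least 10 normalized counts, as a description over libraries that share depth and group. Closest to C1qa were Adap1 (r = 0.978), Lat2 (0.966) and Avpr2 (0.962). Closest to C1qb were Loxl3 (0.987), Htra2 (0.982) and Ptk2b (0.981), and to C1qc Gpsm3 (0.989), Trpt1 (0.978) and Cd52 (0.976). C1ra was followed by Traf3ip3 (0.982), Cd9 (0.978) and Gm26992 (0.977), and Serping1 by Ikzf2 (0.979), Uqcrc2 (0.978) and Kmt2e (0.974). C3 was followed by Cdc34 (0.980), Npy1r (0.964) and Rftn1 (0.961), C4b by Larp6 (0.964), A130010J15Rik (0.960) and Tubb2a (0.959), and Cfb by Gm20547 (0.994), Nelfe (0.993) and U90926 (0.939). For Cfd, at or near 0 throughout, the values of Fbxo8 (0.951), Ppp1r3f (0.902) and Gm5901 (0.896) rest on a handful of reads.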

How the data were processed

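Per the labels and the methods, QuantSeq libraries of 9 SF cultures were sequenced on an Ion Proton, mapped to mm10 with TopHat2 and then Bowtie2, counted with GenomicRanges and normalized with DESeq through metaseqR. The deposited values used here are a score for each gene in each library, the normalized counts that the authors rounded. For hTNFtg replicate 1 the deposited signal amounts to whole reads times a factor. The fold changes and p-values of the authors' comparisons and 24 further columns of per-sample values were not used.

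Both tables were joined by gene ID. For each comparison, genes with a value above 0 in any of its 6 libraries were fitted as log2(normalized count + 1) with limma 3.58.1 (R 4.3.3, trended empirical Bayes, two-sided), with Benjamini-Hochberg adjustment over all genes, after the fit had been checked on simulated data. Fold changes are on that scale, where the added count shrinks changes of low genes and a value near 0 in 1 library can enlarge them. What 1 read was worth in a library was estimated from the spacing of its rounded values. Approximate reads, exact in none but hTNFtg replicate 1, gave the depth and the floor of 3 reads and were tested with edgeR 4.0.16 as an alternative.

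The other alternatives were pseudocounts of 0.5 and 5, a mean of at least 10, quantile and median-ratio scaling, array weights, robust empirical Bayes, a replicate block, all 9 libraries in 1 fit, and leaving out each library. All members were named, with each listed complement gene that was called and the 3 most similar genes per member. Members and lists were chosen with earlier results of these data known. The alternatives for the list of other complement genes, and the motifs searched in promoters, were settled after seeing the data.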

Additional observations from a re-analysis of the deposited data

How the results depend on the processing

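The count of members called by P and fold in hTNFtg versus WT was 4 to 7 under all alternatives, beside 6. The adjusted count there, 2, became 0 with the replicate block, 6 with edgeR on approximate reads, and 0 to 0 when single libraries were left out. With infliximab versus untreated, the P and fold count of 3 ran from 1 to 3 when single libraries were left out, and the adjusted count of 0 became 2 with array quality weights. In infliximab-treated hTNFtg versus WT, the P and fold count of 4 became 2 with robust eBayes, and the adjusted count of 2 became 0 with the replicate block, 1 with all 9 libraries in one fit, 5 with edgeR, and 0 to 0 when single libraries were left out. With the block, C3 lost its P and fold call with infliximab versus untreated (adjusted p = 0.693), as did C1qc in hTNFtg versus WT (adjusted p = 0.615). Same-numbered libraries deviated together with r of -0.15 to 0.35, and the labels do not pair them. The cause of these changes was not tested.

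Direction changed only in members that were not called by limma's main fit in the same comparison. Cfd was among these in infliximab-treated hTNFtg versus WT, and no fold is given for it. In hTNFtg versus WT, C1ra was 0.23 with array weights and -0.77 to 0.44 without single libraries, and Serping1 was -0.24 to 0.76 without single libraries. With infliximab versus untreated, C1qa was 0.03 with quantile normalization, 0.24 with array weights and -0.59 to 0.80 without single libraries. C1qc was 0.52 with array weights and -0.89 to 0.10 without single libraries. C1ra was -0.79 to 0.50 and Serping1 -0.57 to 0.43 without single libraries, and Serping1 was 0.07 with array weights. In infliximab-treated hTNFtg versus WT, C1ra was 0.00 with array weights and -0.75 to 0.21 without single libraries, and Cfb was -0.05 to 0.40. The cause was not tested.

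Among the other complement genes, the 1 called with infliximab versus untreated became 3 with array weights, 2 with robust eBayes, 5 with edgeR, and 0 to 3 without single libraries, and the 11 called in infliximab-treated hTNFtg versus WT became 7 without infliximab replicate 1. Of the P and fold calls, 6 of 10, 0 of 1 and 6 of 11 held whichever library was left out, and those lost were C1rb, Cd55, Cfp and Itgax, then Itgam, then C1rb, C1s1, C1s2, C5ar1 and Cfp. Groups of 3 libraries, and hTNFtg replicate 1 with the other libraries 6.24 to 14.7 times as deep, limit what could be detected. Genes under the floor in that library are given as values.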
